A study of Mus musculus with 12 samples.

Results

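A set of 9 red cell genes was followed across 12 sorted mouse lymphomas, each profiled on 1 array. They were chosen by name, as every probe whose target name in the files was SLC4A1, ERAF, HBB-B1, HBA-A1, ALAS2, KLF1, GATA1, TFRC or CAR2, whatever the case of the letters. Except for ERAF they are written below as mouse symbols. This gave 9 genes and 22 probes among 28698 named genes and 45281 probes on the array. All lymphomas came from C57BL/6 mice at the end stage of disease and carried the Eµ-Myc transgene, which places Myc under an enhancer of the immunoglobulin heavy chain and so directs it to the B lineage. In 6 of them Smchd1 was wildtype. In the other 6 it was null, meaning homozygous for a gene trap allele. The cells were sorted before RNA extraction, but the labels state neither the sort markers nor the ages. They also do not say whether each replicate was a separate animal, and a p-value here therefore covers only the variation among these samples.

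Red cells arise from erythroblasts, which switch on haemoglobin, haem synthesis and a specialised membrane skeleton while they shed most other transcripts. The transcription factors Gata1 and Klf1 direct this programme. Gata1 binds GATA motifs, and Klf1 binds CACCC-type motifs, which occur near many globin and haem genes. Hba-a1 and Hbb-b1 encode the adult alpha and beta globin chains. Alas2 is the erythroid form of the enzyme that opens haem synthesis, and the alpha globin chaperone, listed under its older name ERAF, holds free alpha globin. Slc4a1 is the anion exchanger band 3 of the red cell membrane, and Car2 is a carbonic anhydrase found in red cells and other tissues. Tfrc, the transferrin receptor, takes up iron in erythroblasts and in dividing cells of many kinds, and is known as a target of Myc.

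The promoters are shown because the erythroid factors named above bind motifs near such genes. RefSeq entries on GRCm38.p6 were at hand for 5 of the 9 genes, namely Hba-a1, Alas2, Klf1, Gata1 and Tfrc. The 250 bases before the transcription start are printed 5′ to 3′ on the gene's strand for 3 erythroid genes and for the first of the Tfrc start sites, Tfrc being also used outside the red cell lineage. Capitals mark a GATA motif, searched as AGATAA or TGATAA on both strands, so that a match on the minus strand reads TTATCT or TTATCA. Hba-a1 lies at chr11:32283422-32283671, Alas2 at chrX:150547167-150547416, Klf1 at chr8:84901732-84901981 and Tfrc at chr16:32608646-32608895, all on the plus strand.
Hba-a1: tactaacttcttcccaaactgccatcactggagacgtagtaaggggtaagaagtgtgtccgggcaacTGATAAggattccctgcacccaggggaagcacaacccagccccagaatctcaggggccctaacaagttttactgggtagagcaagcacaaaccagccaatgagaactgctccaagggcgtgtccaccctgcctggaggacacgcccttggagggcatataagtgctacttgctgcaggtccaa
Alas2: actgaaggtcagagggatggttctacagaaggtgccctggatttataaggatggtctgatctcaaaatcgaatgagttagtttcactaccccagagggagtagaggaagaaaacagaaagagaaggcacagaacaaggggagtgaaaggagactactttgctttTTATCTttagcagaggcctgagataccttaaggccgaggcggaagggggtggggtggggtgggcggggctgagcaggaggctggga
Klf1: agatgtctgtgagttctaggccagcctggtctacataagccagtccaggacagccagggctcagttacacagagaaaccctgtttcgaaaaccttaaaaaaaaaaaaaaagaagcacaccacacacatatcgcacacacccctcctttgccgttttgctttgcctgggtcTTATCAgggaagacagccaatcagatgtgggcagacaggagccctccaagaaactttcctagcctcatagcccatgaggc
Tfrc: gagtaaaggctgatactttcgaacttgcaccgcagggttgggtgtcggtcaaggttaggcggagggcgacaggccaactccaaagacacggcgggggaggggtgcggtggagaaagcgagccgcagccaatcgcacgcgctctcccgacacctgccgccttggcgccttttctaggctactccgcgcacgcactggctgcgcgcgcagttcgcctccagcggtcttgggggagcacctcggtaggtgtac

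The Hba-a1 window held TGATAA at 183 to 178 bases before the start. The Alas2 window held AGATAA on the minus strand, 86 to 81 bases before the start, and the Klf1 window held TGATAA on the minus strand, 80 to 75 bases before the start. Neither motif occurred in the windows of Gata1 or of either Tfrc start site. Either motif was present in 16.6% of 32851 RefSeq promoter windows of the same length. CACCC, searched on both strands, occurred 2 times in Hba-a1, 3 times in Alas2, 1 time in Klf1, 2 times in Gata1, and 2 and 3 times in the windows of the Tfrc start sites, and 52% of all windows held it. The E-box CACGTG that Myc binds was in none of these windows and in 6.02% of all windows. A match is only a description of these letters.

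Array quality and the sorted cells are given first because they touch the values below. A probe is called detected where its detection p against the negative controls of its array was under 0.05. Between 14905 and 17724 probes were detected per array, and mean raw intensity was 523.88 to 599.15 on BeadChip 1 and 254.65 to 468.83 on BeadChip 2. BeadChip 1 held wildtype 1, 2 and 3 with null 4, 5 and 6, and BeadChip 2 held the rest. Smchd1 was at 10.15 ± 0.31 (SD, n = 6) in wildtype and 5.78 ± 0.67 (SD, n = 6) in null lymphomas on the log2 scale, with an adjusted p of 1.98e-05 by limma, so the genotypes matched the labels. Pou2af1, a B cell coactivator, was not detected in wildtype 2 and null 2 and was at 10.70 in null 5 against 12.96 to 13.64 in the other 9. Immunoglobulin mu (Ighm) was detected in all 12, at 13.51 to 14.63 by its brighter probe. Its second probe ran from 12.36 in null 2 to 14.62 in wildtype 1. These arrays measure bulk RNA, so the cells that the erythroid RNA came from are not identified. More erythroid cells, more RNA per erythroid cell and RNA from other cells cannot be told apart.

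Adult globin RNA was detected in every lymphoma, at levels that ranged widely from tumour to tumour. Values are log2 intensities after background correction and quantile normalization. Hba-a1 was lowest at 6.20, with a median of 7.85 and a highest value of 10.93, in wildtype lymphomas, and at 5.85, 8.97 and 11.56 in null lymphomas. It was highest in null 2, null 1 and wildtype 1 and lowest in null 5, and the groups overlapped over nearly their whole ranges. The span of 5.71 log2 units is 52.3-fold, and only 1.19% of the 12822 genes tested had a larger SD over the lymphomas. In raw intensity Hba-a1 ran from 130.4 in wildtype 6 to 2892.3 in wildtype 1. The raw order differed from the normalized one, and arrays of BeadChip 2 were dimmer.

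Hbb-b1 varied in the same manner. Its brightest probe was at 6.13, 9.01 and 11.42 (lowest, median, highest) in wildtype and at 6.57, 9.75 and 11.56 in null lymphomas. Null 2, wildtype 1 and null 1 were again the highest, and wildtype 2 and null 5 were the lowest. The range was 43.1-fold, and 2.38% of tested genes had a larger SD.

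The array carries 11 probes named HBB-B1, which allowed a check of the beta globin pattern. Of these, 8 were detected on all 12 arrays, and each pair of the 8 had a Pearson r between 0.931 and 0.997 over the lymphomas. The highest lymphoma was null 2 for 5 of them and wildtype 1 for the other 3. The lowest was wildtype 2 for 5 and null 5 for 3. A further probe was detected on 4 arrays, another on 3, and the last on none. The probes name 1 gene and were read on the same arrays, so they are not replicates of a lymphoma. Hba-a1 and the beta globin genes have near-identical copies, and how the probes divide between copies was not tested. The probe named Hbb-b2 was detected on no array.

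**Figure D1:**
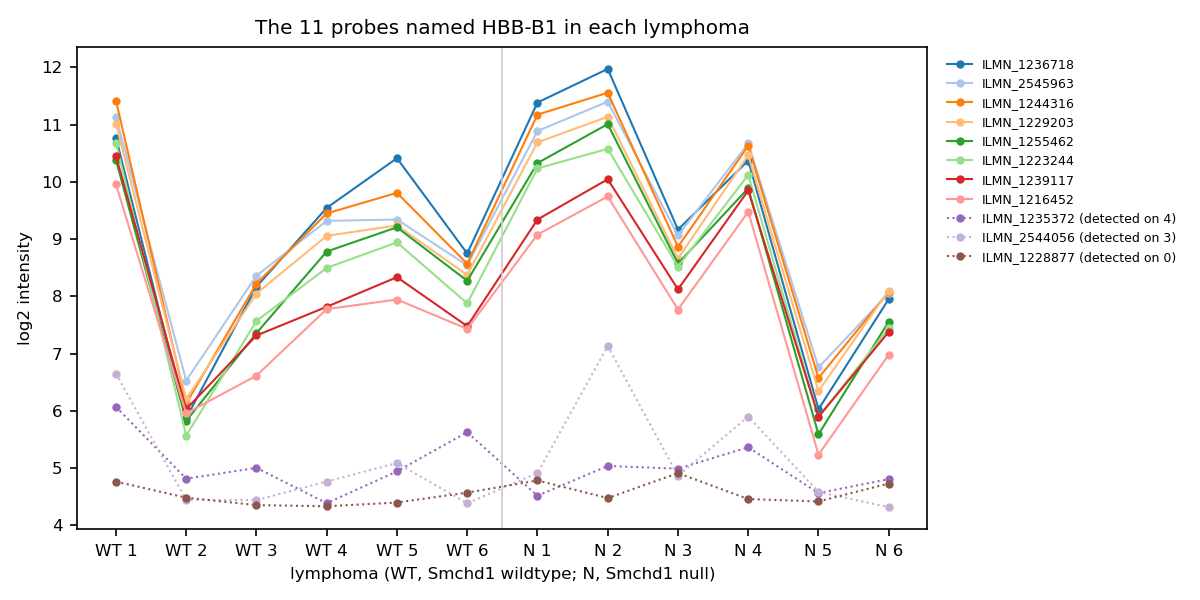
Log2 intensity (y axis) of the 11 probes named HBB-B1 in each lymphoma (x axis). Solid lines are the 8 probes detected on all 12 arrays, which rise in wildtype 1, null 1, null 2 and null 4 and drop in wildtype 2 and null 5. Dotted lines are the 3 other probes.

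The erythroid haem synthesis gene Alas2 was near background in most lymphomas. It was detected in 3 lymphomas, at 5.33 in wildtype 1, 5.74 in null 1 and 5.71 in null 2. Its wildtype values were 4.32, 4.48 and 5.33 (lowest, median, highest), and its null values 4.34, 4.60 and 5.74. Both groups thus held detected and undetected lymphomas. Values below detection have no order.

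The chaperone ERAF ranged from background to clear signal. It was at 4.36, 4.60 and 8.52 in wildtype and at 4.35, 6.50 and 8.93 in null lymphomas. It was detected in null 1, 2, 3 and 4 but only in wildtype 5 among the wildtype lymphomas. The groups overlapped, since wildtype 5 lay above null 3 at 5.86 and null 4 at 7.14.

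The membrane and enzyme genes followed. Slc4a1 was at 4.39, 4.74 and 7.78 in wildtype lymphomas and at 4.52, 6.77 and 9.15 in null lymphomas. It was detected in wildtype 4 and 5 and in null 1, 2, 3 and 4. In normalized level null 2 and null 1 were the highest, and wildtype 5 lay above null 4 and null 3. In raw intensity null 4 was the highest at 354.7, above null 2 at 302.5, null 1 at 281.3 and wildtype 5 at 208.7. The normalized level had a Pearson r of -0.695 with the mean raw intensity of the array. The part of array brightness in this order was not tested.

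Car2 was at 4.33, 4.84 and 6.80 in wildtype and at 4.49, 5.12 and 6.36 in null lymphomas. It was highest in wildtype 5 and was detected in 3 lymphomas of each genotype, namely wildtype 1, 4 and 5 and null 1, 2 and 4. In raw intensity Car2 was highest in null 4 at 150.2, with wildtype 5 at 142.5. A second Car2 probe was detected on no array.

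The erythroid transcription factors were at the limit of detection. Klf1 was detected at 5.21 in wildtype 4 and at 6.06 in null 1, and in no other lymphoma. A Gata1 probe was detected in null 1 at 5.17 and null 2 at 5.47, and the other in wildtype 5 at 5.43. No probe of either gene was detected on the 3 arrays required of a probe for testing, so 7 genes and 17 probes were tested. That requirement favours genes that are high in some lymphomas, so the values of Klf1 and Gata1 are given without a test.

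Tfrc was detected in all 12 lymphomas, as the globins were, but in a different order. It was at 9.62, 11.49 and 13.05 in wildtype and at 11.27, 11.78 and 12.51 in null lymphomas. Wildtype 6 was the highest and wildtype 1, which was among the 3 highest for both globins, was the lowest. Its second probe ran from 9.53 to 12.90 over all lymphomas. In raw intensity null 1 was the lowest and null 5 the highest for both probes, at 1251.4 and 7651.7 for the brighter probe.

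**Figure D2:**
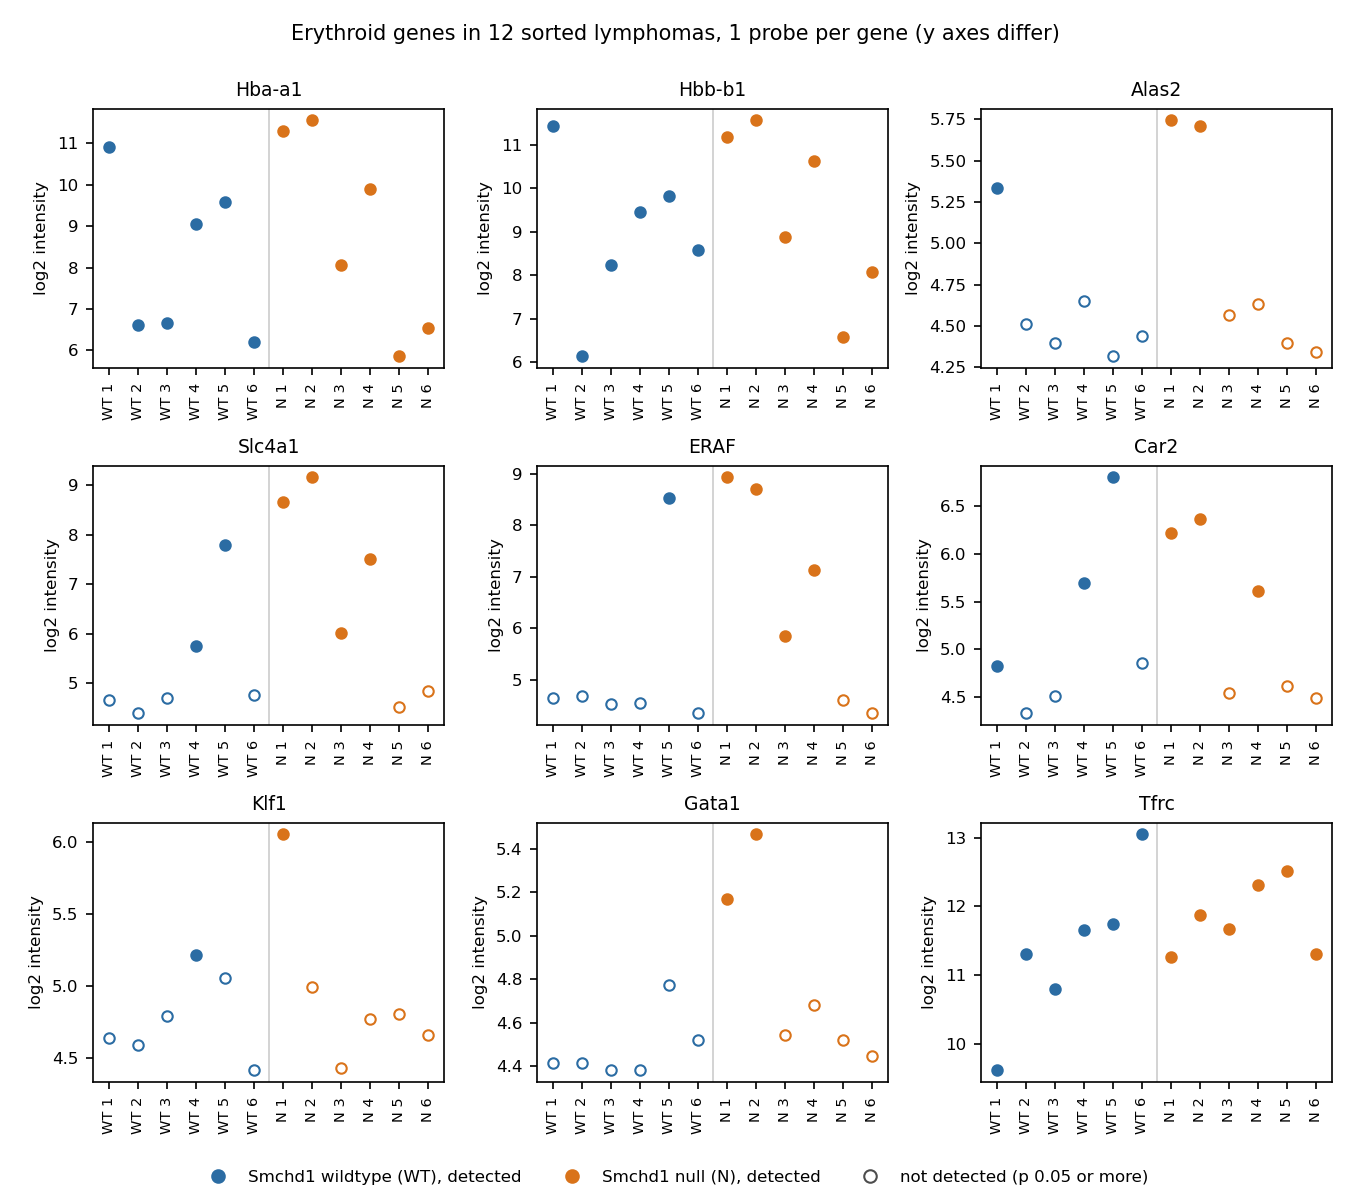
Log2 intensity (y axis, scaled per gene) of 1 probe for each of the 9 genes in 6 wildtype (blue) and 6 null (orange) lymphomas. Filled points were detected at p under 0.05 and open points were not. The globins and Tfrc are detected in all 12, while Slc4a1 and ERAF are at background in 6 and 7 lymphomas.

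Taking all 9 genes, null 1 had a detectable probe for 9, null 2 for 8 and wildtype 5 for 7. A gene counts here if any of its probes was detected. In these 3 lymphomas Gata1 counts through a single probe near background, its other probe not being detected. Wildtype 4 and null 4 had 6, and wildtype 1 and null 3 had 5. The other 5 lymphomas, wildtype 2, 3 and 6 and null 5 and 6, had only Hba-a1, Hbb-b1 and Tfrc. Both genotypes therefore included lymphomas with many and with few detectable erythroid genes.

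The order of lymphomas was compared with that of Hba-a1, and 6 relations were computed, with two-sided tests. Hbb-b1 had a Pearson r of 0.93 (permutation p = 3e-05) and a Spearman rho of 0.92 (permutation p = 7e-05) with Hba-a1 over 12 lymphomas. When all 12821 other genes were regressed on the Hba-a1 level, Hbb-b1 was the single gene past an adjusted p of 0.05 (adjusted p = 0.0152 by limma). That single gene is 0.0078% of those regressed. Its r was 0.90 without null 2 and null 1, the lymphomas farthest from the median. It was 0.94 within BeadChip 1 (exact permutation p = 0.0125, n = 6) and 0.96 within BeadChip 2 (exact permutation p = 0.00417, n = 6).

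The 4 genes detected in only some lymphomas are set against Hba-a1 by detection, since values below detection have no order. Coefficients over all 12 lymphomas had been planned for them and are not given for that reason, and this comparison was chosen after the values were seen. Alas2 was detected in the 3 lymphomas with the highest Hba-a1, at 10.93 to 11.56, and not in the 9 at 5.85 to 9.90. Car2 was detected in the 6 with the highest Hba-a1, at 9.05 to 11.56, and not in the 6 at 5.85 to 8.05. For both genes every lymphoma with detection had more Hba-a1 than every lymphoma without it.

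Slc4a1 was detected in 6 lymphomas with Hba-a1 at 8.05 to 11.56. It was not detected in 5 with Hba-a1 at 5.85 to 6.66, nor in wildtype 1, where Hba-a1 was at 10.93. ERAF was detected in 5 lymphomas with the same Hba-a1 range, and not in those 5, in wildtype 1 or in wildtype 4, where Hba-a1 was at 9.05. In the limma regression on Hba-a1 none of the 4 genes passed, with an adjusted p of 0.606 for each over all genes.

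Within genotypes Hbb-b1 followed Hba-a1 in both, with r = 0.98 in null (exact permutation p = 0.00139, n = 6) and 0.85 in wildtype lymphomas (exact permutation p = 0.0264, n = 6). Whether the genotypes differ in this relation was not tested.

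Wildtype 1 and wildtype 5 differed in which genes were detected. Wildtype 1 was among the 3 highest lymphomas for Hba-a1, Hbb-b1 and Alas2, yet Slc4a1 and ERAF were not detected there, both at 4.65, and Car2 was barely above background at 4.83. In wildtype 5 Slc4a1 was at 7.78, ERAF at 8.52 and Car2 at 6.80, Hba-a1 at 9.57 and Hbb-b1 at 9.81, and Alas2 was not detected.

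Tfrc did not follow Hba-a1, with r = -0.34 (permutation p = 0.295) and rho = -0.29 (permutation p = 0.365), and an adjusted p of 0.723 over all genes by limma. With median scaling in place of quantile normalization its r was -0.61 (permutation p = 0.0375). Its r was -0.44 without null 2 and null 1, -0.44 within BeadChip 1 (exact permutation p = 0.353, n = 6) and -0.74 within BeadChip 2 (exact permutation p = 0.0792, n = 6). Over the 21 pairs of tested genes the mean Spearman rho was 0.47. This mean is a description over genes measured on the same arrays, and it includes values below detection, which have no order.

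**Figure D3:**
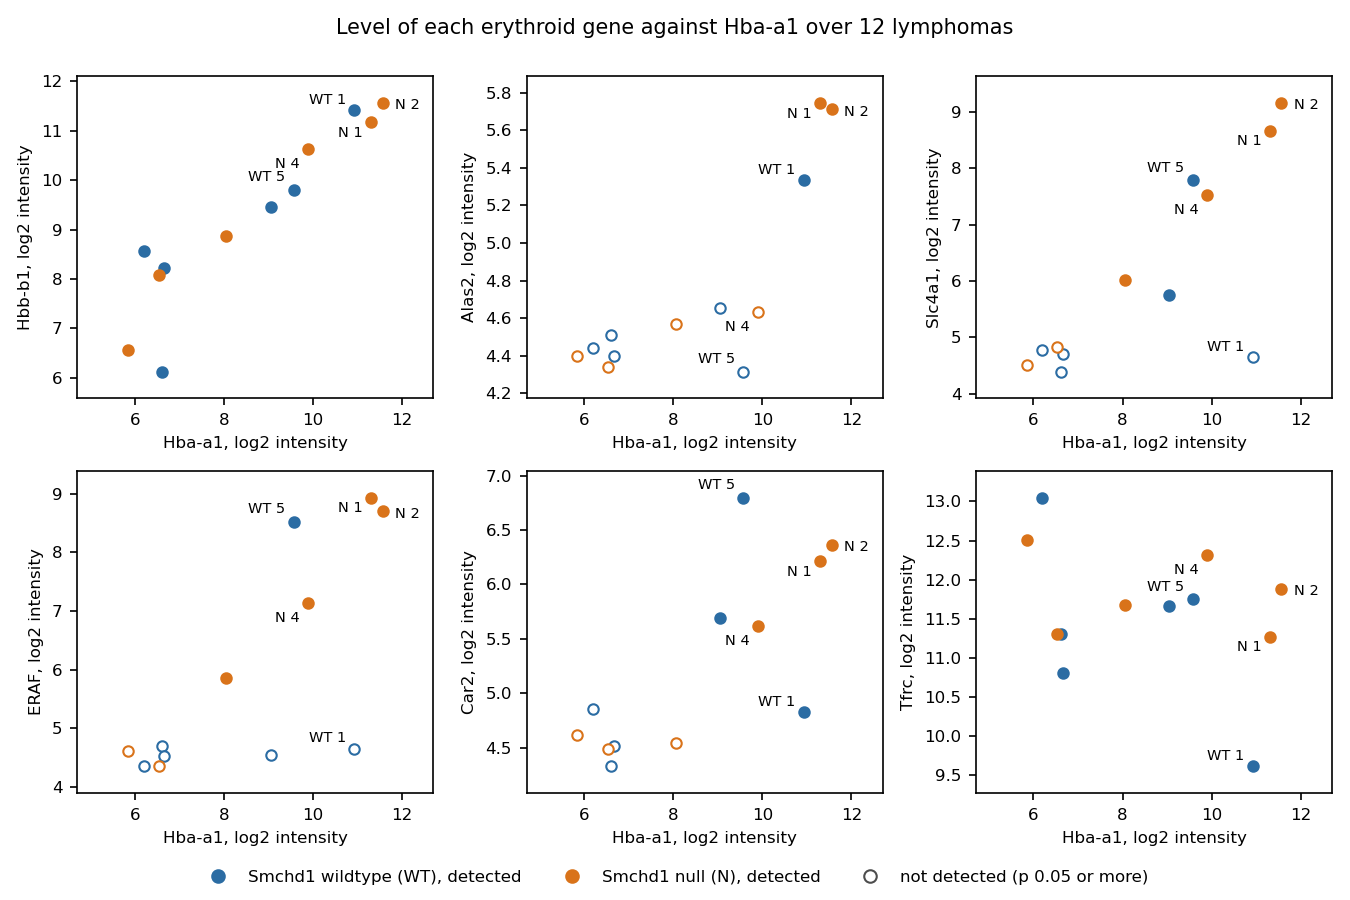
Log2 intensity of 6 erythroid genes (y axes) against that of Hba-a1 (x axes), 1 point per lymphoma, wildtype blue and null orange, with open points not detected. Hbb-b1 rises with Hba-a1 throughout (r = 0.93), and Tfrc shows no rise (r = -0.34). Car2 is detected in the 6 lymphomas highest for Hba-a1, in wildtype 1 only barely. Wildtype 1 lies at background for Slc4a1 and ERAF.

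Null lymphomas did not differ detectably from wildtype lymphomas in any of the tested erythroid genes. By limma over all 12822 genes with Benjamini-Hochberg adjustment, 0 of the 7 genes and 0 of the 17 probes passed 0.05, against a background of 0.0234% of genes and 0.0159% of probes. At an unadjusted p under 0.05, 0 of the 7 passed and 1.46% of all genes did. The groups overlapped for all 7 genes, as they did for all but 0.0858% of genes. The adjusted p was 1.00 for each of the 7.

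Slc4a1 had the largest difference, with means of 5.34 ± 1.28 (SD, n = 6) in wildtype and 6.78 ± 1.96 (SD, n = 6) in null lymphomas. It was higher in null by 1.44 ± 0.85 (SE) on the log2 scale, with a 95% interval of -0.40 to 3.28. ERAF was higher in null by 1.38 ± 0.93 (SE), with an interval of -0.63 to 3.39. Without background correction the differences were 0.73 and 0.62. Both intervals include 0. Slc4a1 was below detection in 6 lymphomas and ERAF in 7, so these sizes depend on the background level. Neither gene passed the detection filter on wildtype detections alone, and the filter thus favours a higher null mean.

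For Hba-a1 the difference was 0.70 ± 1.12 (SE) on the log2 scale, with an interval of -1.73 to 3.13. For Hbb-b1 it was 0.55 ± 0.96 (SE), with an interval of -1.52 to 2.62. The 8 Hbb-b1 probes detected on all arrays gave differences of 0.43 to 0.61. Tfrc differed by 0.46 (interval -0.54 to 1.46), and by 0.11 without wildtype 1, where it was lowest. Alas2 differed by 0.29 (interval -0.35 to 0.93) and Car2 by 0.14 (interval -0.88 to 1.15).

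All 7 differences were positive, against 49.9% of all tested genes, but the genes share lymphomas and are not independent. Slc4a1, ERAF and Alas2 did not pass the detection filter on wildtype detections alone. The filter therefore favours a positive sign for them, and the shared sign is only a description. The direction depended on few lymphomas for several of them. Without null 1 and null 2 the difference was -0.59 for Hba-a1, -0.40 for Hbb-b1, -0.13 for Alas2 and -0.35 for Car2, and it was 0.38 for Slc4a1 and 0.27 for ERAF. Without wildtype 2 and null 2, the lymphomas without detectable Pou2af1, it was -0.15 for Hba-a1, -0.43 for Hbb-b1 and -0.24 for Car2.

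The BeadChips also gave different values. For Hba-a1 the difference was -0.64 on BeadChip 1 and 2.03 on BeadChip 2, and for Hbb-b1 it was -0.16 and 1.26. For Slc4a1 it was 1.04 and 1.84, and for ERAF 0.74 and 2.02, genes for which the detection filter favours a positive sign. For Tfrc it was 1.47 and -0.54. None passed on either BeadChip, and whether the BeadChips differ was not tested.

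**Figure D4:**
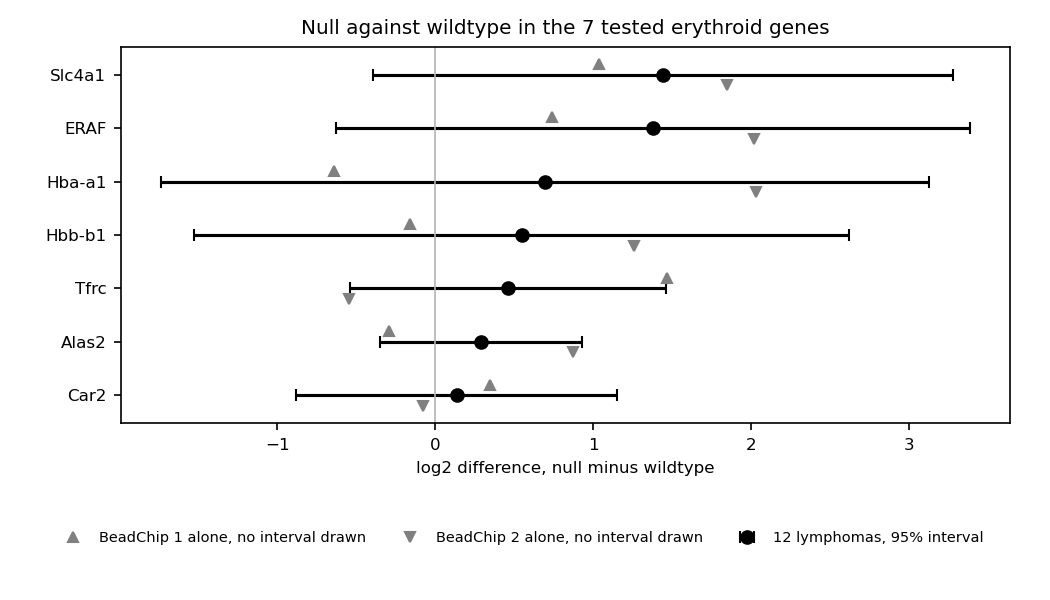
Log2 difference, null minus wildtype (x axis), for the 7 tested genes (y axis). Black points with bars are the limma estimate and 95% interval over 12 lymphomas, and grey triangles are each BeadChip alone, without an interval. Every bar spans 0, and the BeadChips lie on opposite sides of 0 for Hba-a1, Hbb-b1, Tfrc, Alas2 and Car2.

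Other genes of the erythroid programme were read from 7 lists. Of 78 listed genes, 76 were on the array and 53 were tested, of which 24 were higher and 29 lower in null, and none passed. Their median log2 difference was -0.04, beside -0.00046 for all genes. Only Socs3, an inhibitor of cytokine signalling, had an unadjusted p under 0.05 (difference -1.42 ± 0.63 SE, adjusted p = 1.00 by limma).

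Among haem synthesis genes 6 of 7 tested were higher in null, with a median of 0.06. Alad differed by -0.26 and Cpox by 0.18. The list's mean level stayed between 8.21 and 8.68 in every lymphoma, whereas Alas2 was detected in only 3. The ubiquitous form Alas1 was detected in all 12, at 10.02 to 11.54, and is named after its values were seen.

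Among red cell membrane genes 6 of 9 tested were higher in null, with a median of 0.12. Xk differed by -0.61. Among iron genes 2 of 11 were higher, with a median of -0.12, and Trf, transferrin, differed by -0.89 and Slc25a37, mitoferrin, by -0.31. Among red cell enzyme and maturation genes 4 of 12 were higher, with a median of -0.08, and Mkrn1 differed by -0.28.

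Among erythroid transcription factors and partners 3 of 7 were higher, with a median of -0.08, and Lyl1 differed by -0.35 and Cbfa2t3 by 0.30. Among receptors and signalling genes 2 of 6 were higher, with a median of -0.08, and Stat5a differed by 0.18. The 1 tested globin outside the 9 genes, the embryonic Hbb-bh1, differed by 0.02. None of these passed the test.

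The genes whose levels were most like the mean standardized level of the 7 tested genes over the 12 lymphomas included further red cell genes. Car1, the carbonic anhydrase of red cells, had r = 0.92 and the water channel Aqp1 had r = 0.91. The amino acid transporter Slc38a5 had r = 0.86. The others of the first 8 were Pcdha11 (0.91), Fthl17c (0.88), a locus listed as LOC100046003 (0.87), Sphk1 (0.86) and Abca17 (0.84). These coefficients are a description over 12 lymphomas, carry no test and include values below detection.

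Car1 was detected in the same lymphomas as ERAF. It was at 8.72 in wildtype 5, 9.48 in null 1, 9.02 in null 2, 6.06 in null 4 and 5.22 in null 3, and was not detected in the other 7. The brightest Aqp1 probe was at 7.49 in wildtype 5, 8.31 in null 1 and 8.53 in null 2, and was detected elsewhere only in null 4. Another Aqp1 probe was also detected in null 3 and null 6. Neither gene was detected in wildtype 1.

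Not every erythroid gene kept to this order. The brighter Hbb-bh1 probe was highest in null 3 at 7.44 and wildtype 6 at 7.35, and neither probe was detected in null 1 or null 2. Gfi1b, a repressor used in erythroid and other blood lineages and named after its values were seen, was at 11.55 in wildtype 6, 7.93 in null 4 and 7.30 in null 3.

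**Figure D5:**
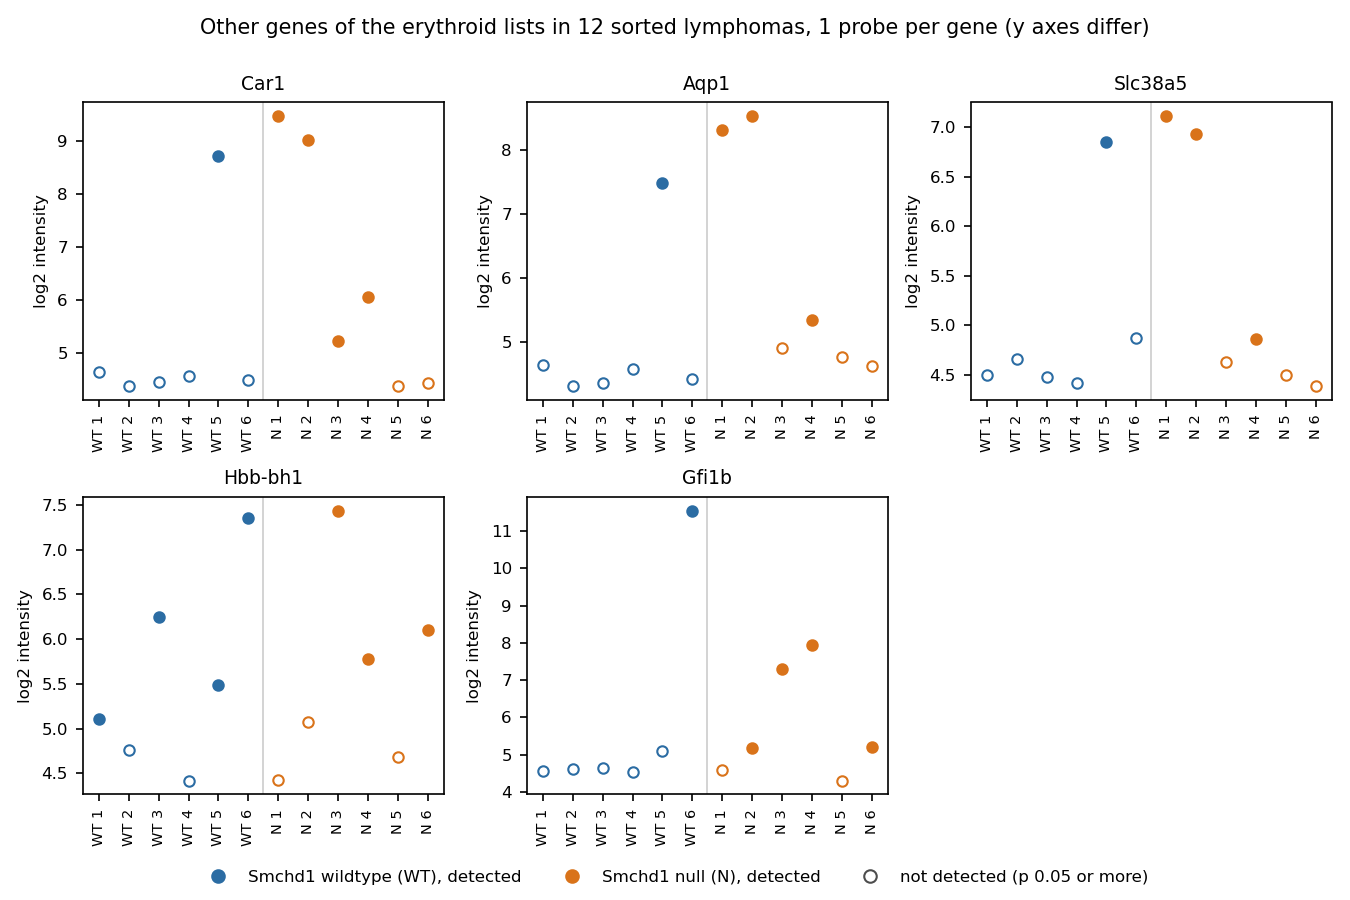
Log2 intensity (y axis, scaled per gene) of 5 other erythroid genes in wildtype (blue) and null (orange) lymphomas, with open points not detected. Car1, Aqp1 and Slc38a5 are high in wildtype 5, null 1 and null 2, while Hbb-bh1 and Gfi1b are high in wildtype 6 and null 3.

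Markers of other cells were read beside these values. For neutrophil markers 10 of 12 were tested, and 9 of the 10 were higher in null (median 0.49), none past the test. Ela2 differed by 0.57 and Ngp by 0.62. The mean level of the list was 5.21 to 7.93 in wildtype and 6.02 to 8.51 in null lymphomas. It was highest in null 1 at 8.51, null 2 at 8.05 and wildtype 5 at 7.93. In normalized level, though not in raw intensity, these were also the 3 lymphomas highest for ERAF, Slc4a1 and Car2. Null 6, where Slc4a1 and ERAF were not detected, came next in the list mean at 7.85. S100a8, an abundant neutrophil gene, was detected in all 12 at 7.60 to 12.74. The part of neutrophil RNA or of the sort in the erythroid values was not tested.

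The B cell list averaged 8.83 to 11.76 in wildtype and 8.95 to 11.27 in null lymphomas, with 2 of 13 genes higher in null (median -0.24). Cd74 differed by 0.18, Fcrla by -0.39, Ms4a1 by -0.70 and Ighm by -0.09. Platelet markers were mostly absent, with 1 of 11 tested, Tubb1. Pf4 was detected in wildtype 2 and null 6 alone and Ppbp in wildtype 6 and null 3 alone.

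Macrophage markers were higher in null for 7 of 11 tested (median 0.08), and their mean was 5.24 to 7.08 in wildtype and 5.37 to 7.70 in null lymphomas. C1qc differed by -0.36 and C1qa by 0.18. T cell markers were higher for 4 of 10 (median -0.16), averaging 5.98 to 8.58 in wildtype and 5.50 to 10.28 in null lymphomas, with null 1 the highest. Zap70 differed by -1.32 and Cd4 by -0.47. NK cell markers were higher for 0 of 5 (median -0.70), with means of 5.42 to 7.97 and 5.41 to 6.27. Neither Klrb1c nor Klre1 was detected in any null lymphoma. Klrb1c was detected in 4 wildtype lymphomas and Klre1 in 3, so both passed the detection filter through wildtype alone. That filter favours a higher wildtype mean, so no fold is given. The adjusted p was 1.00 by limma for both.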

How the data were processed

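Per the labels, RNA was amplified to biotinylated cRNA for Illumina arrays, which the file headers name as MouseWG-6 version 2. Each deposited intensity is the mean over the beads of a probe, exported from GenomeStudio 1.6.0 without normalization, per the file headers. The deposited detection values are a fraction, 1 minus the detection p-value, and the deposited bead number is a count, 22 to 76 for the probes described. The submitters' processing notes name BeadStudio, limma 3.12.1 and R 2.15.1. The deposited log2 values equal those computed here to within 5e-09.

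Intensities were background corrected with 936 negative controls, offset by 16, quantile normalized and put on the log2 scale (neqc, limma 3.58.1, R 4.3.3). Probes detected at p under 0.05 on at least 3 of 12 arrays were kept, 18921 in all, and the brightest probe stood for a gene, 12822 in all. Of 30774 target names, 15991 were matched to RefSeq by symbol, 5826 by synonym and 887 by gene ID, and 8070 stayed as the files give them.

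Null minus wildtype was tested with limma (lmFit, eBayes), adjusted by Benjamini-Hochberg over all genes, or over all probes for the probe results. Correlations used 100000 permutations, or all of them for 6 arrays. The script was tested on simulated data with values shuffled gene by gene. Alternatives changed the background correction, the normalization, the filter, the probe rule, the BeadChip, the replicate block, the array weights and the lymphomas used.

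The genes and lists were chosen with earlier results of these data known. Named are the 9 genes, Smchd1, the 2 smallest p-values per list, the 8 genes most like the mean of the 7 tested genes, and Ms4a1, Ighm, Pf4 and Ppbp. Some genes that the rule takes are not reported here. Pou2af1, Hbb-b2 and S100a8 were named after their values were seen. The number of arrays limits the precision.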

Additional observations from a re-analysis of the deposited data

Results flagged for a closer look

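Within the 6 lymphomas of a genotype, 2 values lay far from the rest by Dixon's test among the 14 groups examined, where chance marks about 1 group in 20. ERAF in wildtype 5 was at 8.522 on the log2 scale, and Alas2 in wildtype 1 was at 5.334. In each case the other 5 wildtype lymphomas were below detection, so the test's range rests on background values, and these values show only that the gene was detected in 1 wildtype lymphoma. Neither value was above the highest null lymphoma.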

How the results depend on the processing

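No erythroid gene or probe passed under any of the 25 alternatives. Slc4a1 (0.38 to 1.93) and ERAF (0.27 to 2.04) kept a positive difference in each alternative that gave them a value. Where the detection filter was kept it favours that sign, since neither gene passed it on wildtype detections alone. Without background correction Slc4a1 was at 0.73, ERAF at 0.62, Alas2 at 0.098 and Car2 at 0.043, and with median scaling Alas2 was at 0.025. Tfrc was at 0.11 without wildtype 1. Alas2 was at 0.12 without null 1. Hba-a1 turned to -0.64 on BeadChip 1, -0.59 without null 1 and 2, and -0.15 without wildtype 2 and null 2, an alternative chosen after seeing the data. Hbb-b1 turned to -0.16 on BeadChip 1, -0.013 without wildtype 2, -0.40 without null 1 and 2, and -0.43 without wildtype 2 and null 2. Alas2 turned to -0.29 on BeadChip 1 and -0.13 without null 1 and 2, and Tfrc to -0.54 on BeadChip 2. Car2 turned to -0.077 on BeadChip 2, -0.033 without wildtype 2, -0.045 without null 1, -0.075 without null 2, -0.35 without both, -0.24 without wildtype 2 and null 2, and -0.29 when arrays were weighted. Leaving out 1 lymphoma in turn, the highest values of Hba-a1 and Hbb-b1 were 1.30 and 1.13, both without null 5, and that of Car2 was 0.46 without wildtype 5. The cause was not tested.

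The count of called genes over the whole array was 3, against 1 on BeadChip 1, 0 on BeadChip 2, where fewer arrays enter, and 3 to 5 when 1 lymphoma was left out, with 5 without wildtype 2. The mean Spearman rho between genes ran from 0.29 to 0.52. ERAF and Alas2 gave no value where detection on 6 arrays was required. Expression values cannot show whether replicate numbers pair the samples. Same-numbered lymphomas had residual correlations of -0.26 to 0.68 over 6 pairs. The highest were 0.67 for number 1 and 0.68 for number 2, and these 2 of 6 were closest to their own number. With the replicate block 3 genes were called and Slc4a1 stayed at 1.44, with 0 erythroid genes called. Genes near background, such as Alas2, Klf1 and Gata1, are limited by signal.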
